A study of Mus musculus with 10 samples.

Results

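The 27 genes described here make cholesterol, control that synthesis through the transcription factor SREBP2, or move and export sterols. They were taken from the deposited table of 55401 genes by symbol, each symbol matched 1 row, and all 27 were above the expression filter that left 12731 genes for testing. By role they comprise 19 enzymes of synthesis, 4 genes of SREBP2 control (Srebf2, Scap, Insig1 and Insig2) and 4 genes of sterol transport, receptor turnover and export (Stard4, Mylip, Abcg5 and Abcg8). RNA came from whole livers of 5 NIKhKO and 5 NIKflox mice. The label hKO is not spelled out. The title of the series names NIK in the liver, the NF-kB inducing kinase encoded by Map3k14. Mice of both genotypes took a Lieber-DeCarli liquid diet, in which ethanol made up 5%, over 4 weeks, so that no liver without ethanol was compared. The promoter that drives any Cre, the deleted part of Map3k14, and the sex and age of the mice are not given in the sources used here. Nothing in the labels says whether livers of a genotype came from separate litters or cages, and p-values therefore measure only the spread between these samples.

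Cholesterol is built from acetyl-CoA through mevalonate, the prenyl diphosphates and squalene to lanosterol, which a chain of membrane-bound reductases, demethylases and isomerases turns into cholesterol. When sterols in the endoplasmic reticulum are low, the escort protein SCAP carries SREBP2 to the Golgi, where proteases release its transcription factor domain, and when sterols are high the INSIG proteins hold the complex back. The liver is a main site of this synthesis and also removes cholesterol into bile through the ABCG5 and ABCG8 half-transporters, which are induced by the oxysterol receptor LXR.

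SREBP2 binds sterol regulatory elements, usually beside sites of NF-Y, a factor that reads the letters CCAAT. Promoter windows of 300 bases (250 before and 50 after the annotated start, RefSeq, GRCm38.p6) were at hand for 23 of the 27 genes, in 30 windows. The windows of 5 of these genes are shown. They are written 5′ to 3′ on the strand of the gene, with capitals for TCACCCCA, TCACNCCAC and CCAAT on either strand, so that ATTGG marks a CCAAT on the opposite strand.
Hmgcs1 (chr13:119690101-119690400, plus strand): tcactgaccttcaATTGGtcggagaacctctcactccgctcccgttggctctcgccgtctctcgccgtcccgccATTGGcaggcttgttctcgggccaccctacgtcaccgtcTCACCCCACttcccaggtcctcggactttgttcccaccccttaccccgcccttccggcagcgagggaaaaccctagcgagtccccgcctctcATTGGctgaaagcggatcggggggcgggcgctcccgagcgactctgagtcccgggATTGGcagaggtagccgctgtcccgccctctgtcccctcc
Srebf2 (chr15:82147019-82147318, plus strand): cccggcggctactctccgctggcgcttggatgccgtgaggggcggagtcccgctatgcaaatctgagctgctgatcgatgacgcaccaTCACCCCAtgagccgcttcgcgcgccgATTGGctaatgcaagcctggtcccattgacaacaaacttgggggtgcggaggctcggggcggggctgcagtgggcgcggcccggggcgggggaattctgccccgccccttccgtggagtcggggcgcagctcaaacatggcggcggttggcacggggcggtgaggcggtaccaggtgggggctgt
Mvd (chr8:122443373-122443672, minus strand): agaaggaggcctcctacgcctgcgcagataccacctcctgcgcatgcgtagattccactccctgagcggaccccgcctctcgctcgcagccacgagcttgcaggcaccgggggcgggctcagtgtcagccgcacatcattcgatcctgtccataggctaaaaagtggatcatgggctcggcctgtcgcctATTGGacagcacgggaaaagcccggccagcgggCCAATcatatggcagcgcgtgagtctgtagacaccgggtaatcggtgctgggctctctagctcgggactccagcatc
Idi1 (chr13:8885356-8885655, plus strand): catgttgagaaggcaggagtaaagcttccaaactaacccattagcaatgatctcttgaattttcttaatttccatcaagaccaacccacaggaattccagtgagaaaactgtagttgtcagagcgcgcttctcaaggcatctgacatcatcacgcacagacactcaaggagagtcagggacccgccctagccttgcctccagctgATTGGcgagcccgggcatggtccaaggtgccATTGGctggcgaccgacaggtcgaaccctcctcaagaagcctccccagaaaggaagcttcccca
Abcg5 (chr17:84682962-84683261, minus strand): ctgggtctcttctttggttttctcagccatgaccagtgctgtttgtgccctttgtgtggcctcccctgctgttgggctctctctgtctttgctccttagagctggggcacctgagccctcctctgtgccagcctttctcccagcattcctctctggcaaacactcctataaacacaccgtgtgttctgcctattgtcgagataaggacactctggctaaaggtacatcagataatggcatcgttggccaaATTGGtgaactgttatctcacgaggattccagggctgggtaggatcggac

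Both strands were searched. The sterol element core TCACCCCA was in 2 member windows (6.67%), those of Hmgcs1, 137 to 130 bases before the start, and Srebf2, 162 to 155 bases before the start, against 1.56% of all 32851 windows of the table. TCACNCCAC was in 1 member window, that of Hmgcs1, where it overlaps the core (3.33%), and in 1.24% of all windows. CCAAT was in 21 of the 30 member windows (70.0%), 1 for each of 21 genes, against 37.4% of all windows. In the Hmgcs1 window it occurred 4 times, on the opposite strand each time. In RefSeq, Abcg5 and Abcg8 face away from each other on chromosome 17, Abcg5 on the minus strand from base 84683011 and Abcg8 on the plus strand from base 84683121. These RefSeq starts lie 110 bases apart and their windows share 209 bases, so the Abcg5 window above also holds most of the Abcg8 window. The only CCAAT of the Abcg5 window, at bases 1 to 5 from its start, lies in the shared stretch. It is thus in both windows and enters the count above for both genes.

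Levels are FPKM, fragments that the authors divided by transcript length and by library size, and the genotypes were tested on the deposited estimated counts with edgeR's quasi-likelihood test over all 12731 genes. Libraries held 47161869 to 65052525 estimated counts, and members had between 248 (Ggps1) and 38934 (Sc5d) counts in a library. Map3k14 averaged 0.383 ± 0.0372 FPKM in NIKhKO livers and 0.606 ± 0.168 FPKM in NIKflox livers (SD, n = 5 each; edgeR adjusted p = 0.33), with ranges of 0.347 to 0.443 and 0.483 to 0.899 FPKM that did not overlap. NIKflox 2 and 4 stood apart from the other 8 livers in heart muscle markers. The summed level of 5 heart muscle markers was 6.53 FPKM in NIKflox 2 and 25.6 FPKM in NIKflox 4, against 0.00798 to 0.183 FPKM in the other 8, where Actc1 and Myl2 were listed at 0.0001 FPKM, the value the table gives a count of 0. The 5 adipose markers summed to 24.9 FPKM in NIKflox 2 and 4.19 FPKM in NIKflox 4, against 2.64 to 3.46 FPKM in the other 8. Outside NIKflox 2 this sum was mostly Fabp4. NIKflox 4 was near NIKhKO 5 in Adipoq (0.255 and 0.238 FPKM) and Cfd (0.956 and 0.724 FPKM), so only NIKflox 2 was far apart in adipose markers. Hepatocyte markers, 6 of which were in the table, dominated every library, at 41000 to 48300 FPKM in NIKhKO livers and 36800 to 51000 FPKM in NIKflox livers. Summed cholangiocyte markers were at 15.8 to 26.9 FPKM in NIKhKO livers and 26.1 to 46.2 FPKM in NIKflox livers, and summed B cell markers at 4.3 to 10.9 FPKM in NIKhKO livers and 2.74 to 6.06 FPKM in NIKflox livers. Results that rest on NIKflox 2 and 4 are given with and without them.

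No gene of cholesterol synthesis, SREBP2 control or sterol export passed the test between NIKhKO and NIKflox livers. Of the 27 members, 0 were called at an adjusted p below 0.05, where 3 of 12731 genes were called (0.0236%; 0.0157% higher and 0.00785% lower in NIKhKO), and adjusted p-values of the members ran from 0.46 for Sc5d to 1.0 for Fdps. DESeq2 also called 0 of the 27, with 1.66% of all genes called, and limma on log2(FPKM + 1) called 0 of the 27 and 0 of all genes. DESeq2 had the same pair of members, and limma 0, at an unadjusted p below 0.05. At an unadjusted p below 0.05 stood 2 members (7.41%), Sc5d and Stard4, both higher in NIKhKO, and 0 lower ones, against 1273 of all 12731 tested genes (4.85% higher and 5.14% lower). Ranges of the genotypes overlapped for 27 of 27 members, where 2.20% of all tested genes had ranges apart. Log2 fold changes (NIKhKO minus NIKflox) were positive for 16 members and negative for 11, with a median of 0.02, against a median of -0.01 over all tested genes. They lay between -0.56 (Sqle) and 0.49 (Msmo1). By role, the median was 0.02 over the 5 genes of the mevalonate arm, 0.04 over the 4 of the prenyl and squalene arm, -0.30 over the 2 from squalene to lanosterol and 0.15 over the 8 from lanosterol to cholesterol. It was -0.04 over the 4 control genes and 0.15 over the 4 genes of transport, receptor turnover and export.

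**Figure D1:**
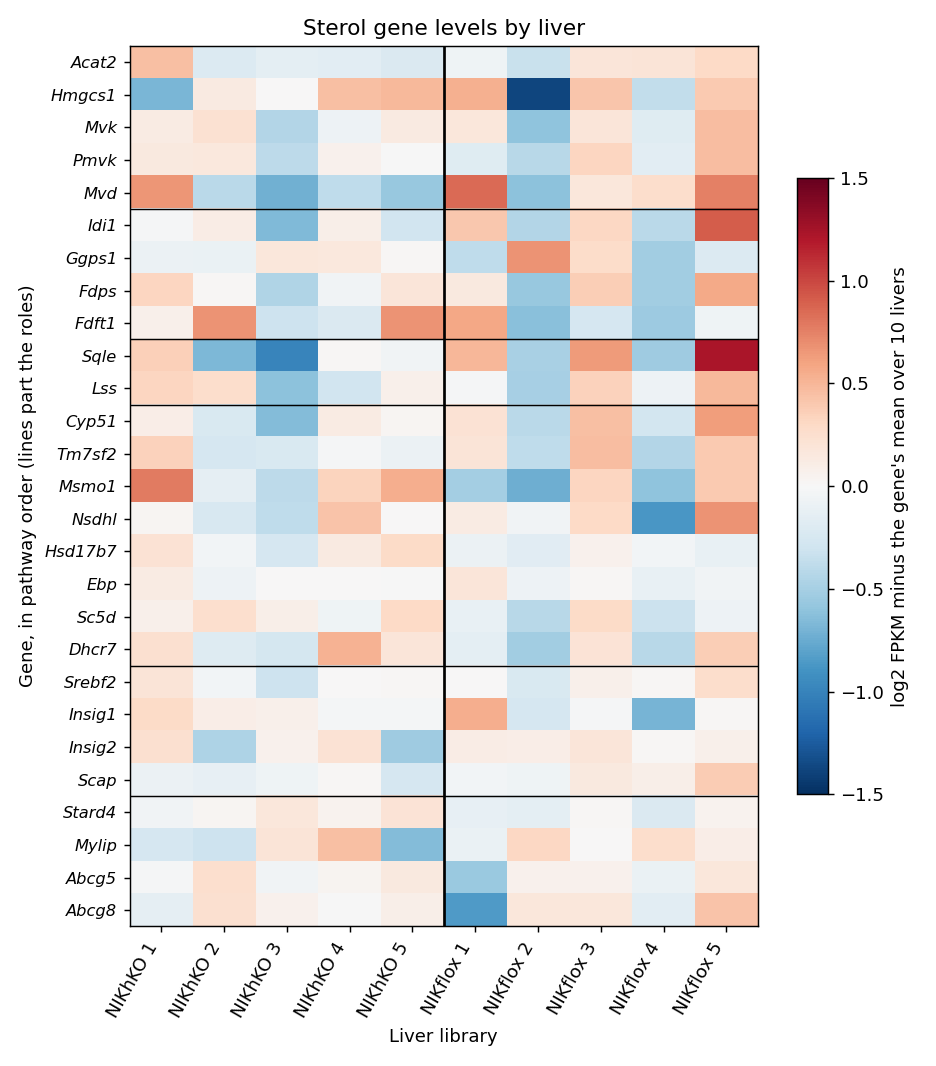
Levels of the 27 sterol genes in each liver, as log2 FPKM minus the mean of the gene over the 10 livers (colour scale), with NIKhKO livers left and NIKflox livers right of the black line. Most enzyme rows are blue in NIKflox 2, NIKflox 4 and NIKhKO 3 and red in NIKflox 3 and NIKflox 5, and no row parts the genotypes.

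The mevalonate arm begins with Acat2, the cytosolic thiolase that joins 2 acetyl-CoA, and Hmgcs1, the cytosolic HMG-CoA synthase. Hmgcs1 read 20.0, 35.5, 32.3, 44.1 and 45.0 FPKM in NIKhKO 1 to 5, against 46.8, 12.4, 43.1, 25.0 and 42.4 FPKM in NIKflox 1 to 5. Its lowest level in NIKflox, in NIKflox 2, lay below every NIKhKO liver and its highest, in NIKflox 1, above them all, and the log2 fold change was 0.12 (SE 0.34, edgeR adjusted p = 0.95). Mvd, the mevalonate diphosphate decarboxylase (chromosome 8, 122433601 to 122443422, GRCm38), had the smallest p of the arm. It read 10.9, 5.21, 4.2, 5.3 and 4.65 FPKM in NIKhKO 1 to 5, against 12.4, 4.5, 7.75, 8.26 and 11.7 FPKM in NIKflox 1 to 5. NIKhKO 1 was far above the other NIKhKO livers, NIKflox 2 lay among those, and the log2 fold change of -0.51 (SE 0.31) had an adjusted p of 0.65. Without NIKhKO 1 the log2 fold change of Mvd was -0.82. Acat2 and the mevalonate and phosphomevalonate kinases Mvk and Pmvk had log2 fold changes from -0.04 to 0.02. Mvk read 4.13 to 6.58 FPKM in NIKhKO livers and 3.69 to 7.71 FPKM in NIKflox livers, and Pmvk read 14.7 to 21.6 FPKM in NIKhKO livers and 14.5 to 26.7 FPKM in NIKflox livers, so that for both the wider range was that of NIKflox.

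In the prenyl and squalene arm Idi1 isomerises isopentenyl diphosphate, Fdps makes farnesyl diphosphate, Ggps1 makes the geranylgeranyl diphosphate used for protein prenylation, and Fdft1 is squalene synthase, the first enzyme committed to sterols. Fdft1 (chromosome 14, 63145150 to 63179578), with the smallest p of the arm, read 16.3, 24.7, 12.4, 13.3 and 24.7 FPKM in NIKhKO 1 to 5, against 23.0, 9.96, 12.9, 10.6 and 14.8 FPKM in NIKflox 1 to 5. High levels were thus found in NIKhKO 2 and 5 and in NIKflox 1, and the log2 fold change was 0.41 (SE 0.27, adjusted p = 0.68). Without NIKflox 2 and 4 it was 0.15 (SE 0.28). Idi1 averaged 14.6 ± 3.0 FPKM in NIKhKO livers and 18.8 ± 7.47 FPKM in NIKflox livers (SD, n = 5 each), and the log2 fold change was -0.32 (SE 0.25, adjusted p = 0.76). Fdps read 13.5 to 23.1 FPKM in NIKhKO livers and 12.5 to 27.4 FPKM in NIKflox livers, with a log2 fold change of 0.01. Ggps1, at 1.35 ± 0.125 FPKM in NIKhKO livers and 1.36 ± 0.496 FPKM in NIKflox livers the member with the lowest level, had one of 0.06.

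Sqle, the squalene epoxidase and a rate-limiting step after mevalonate, varied the most between livers. It read 4.84, 2.37, 1.9, 3.8 and 3.63 FPKM in NIKhKO 1 to 5, against 5.32, 2.69, 5.87, 2.6 and 8.81 FPKM in NIKflox 1 to 5. NIKflox 1, 3 and 5 lay above every NIKhKO liver, NIKflox 2 and 4 lay near the lowest NIKhKO livers, and the highest liver held 4.64 times the level of the lowest. The log2 fold change of Sqle (chromosome 15, 59315077 to 59331192) was -0.56 (SE 0.36, adjusted p = 0.67), with an approximate 95% interval of -1.26 to 0.14 from the SE and the normal distribution. Lss, which closes squalene epoxide to lanosterol, read 1.85 to 3.54 FPKM in NIKhKO livers and 2.02 to 3.97 FPKM in NIKflox livers and had a log2 fold change of -0.04 (SE 0.20).

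Among the 8 enzymes from lanosterol to cholesterol, Sc5d, the sterol desaturase, and Ebp, the sterol isomerase, had the highest levels per transcript length. Sc5d (chromosome 9, 42251595 to 42264256) read 98.9, 112, 100, 89.5 and 115 FPKM in NIKhKO 1 to 5, against 86.5, 70.4, 114, 74.8 and 88.6 FPKM in NIKflox 1 to 5. All NIKhKO livers lay above every NIKflox liver except NIKflox 3, which lay near the highest NIKhKO livers. The log2 fold change was 0.31 (SE 0.13, unadjusted p = 0.037, adjusted p = 0.46), and without NIKflox 2 and 4 it was 0.15 (SE 0.12, unadjusted p = 0.22). Ebp read 85.3 to 97.9 FPKM in NIKhKO livers and 83.3 to 102 FPKM in NIKflox livers, the narrowest span of the 27 genes, with a log2 fold change of 0.08 (SE 0.09). Msmo1, the methylsterol oxidase, had the highest log2 fold change of the 27, 0.49 (SE 0.28, adjusted p = 0.61), at 11.5 ± 3.67 FPKM in NIKhKO livers and 8.54 ± 3.3 FPKM in NIKflox livers (SD, n = 5 each). NIKflox 2 and 4 were its lowest livers, at 5.65 and 6.17 FPKM, and without them its log2 fold change was 0.21 (SE 0.28). Hsd17b7, which acts as a sterol ketoreductase, and Dhcr7, the reductase of the last step, had positive log2 fold changes of 0.21 and 0.25. Without NIKflox 2 and 4 these were 0.18 and 0.02. Dhcr7 read 9.19 to 15.8 FPKM in NIKhKO livers and 7.69 to 14.2 FPKM in NIKflox livers. Cyp51, the lanosterol demethylase, Tm7sf2, a sterol reductase, and Nsdhl, a sterol dehydrogenase, had negative ones of -0.22, -0.07 and -0.06, with adjusted p-values of 0.80 to 0.97. Cyp51 read 11.3 to 19.3 FPKM in NIKhKO livers and 13.4 to 27.4 FPKM in NIKflox livers, and Nsdhl read 8.78 to 15.4 FPKM in NIKhKO livers and 6.22 to 18.2 FPKM in NIKflox livers.

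**Figure D2:**
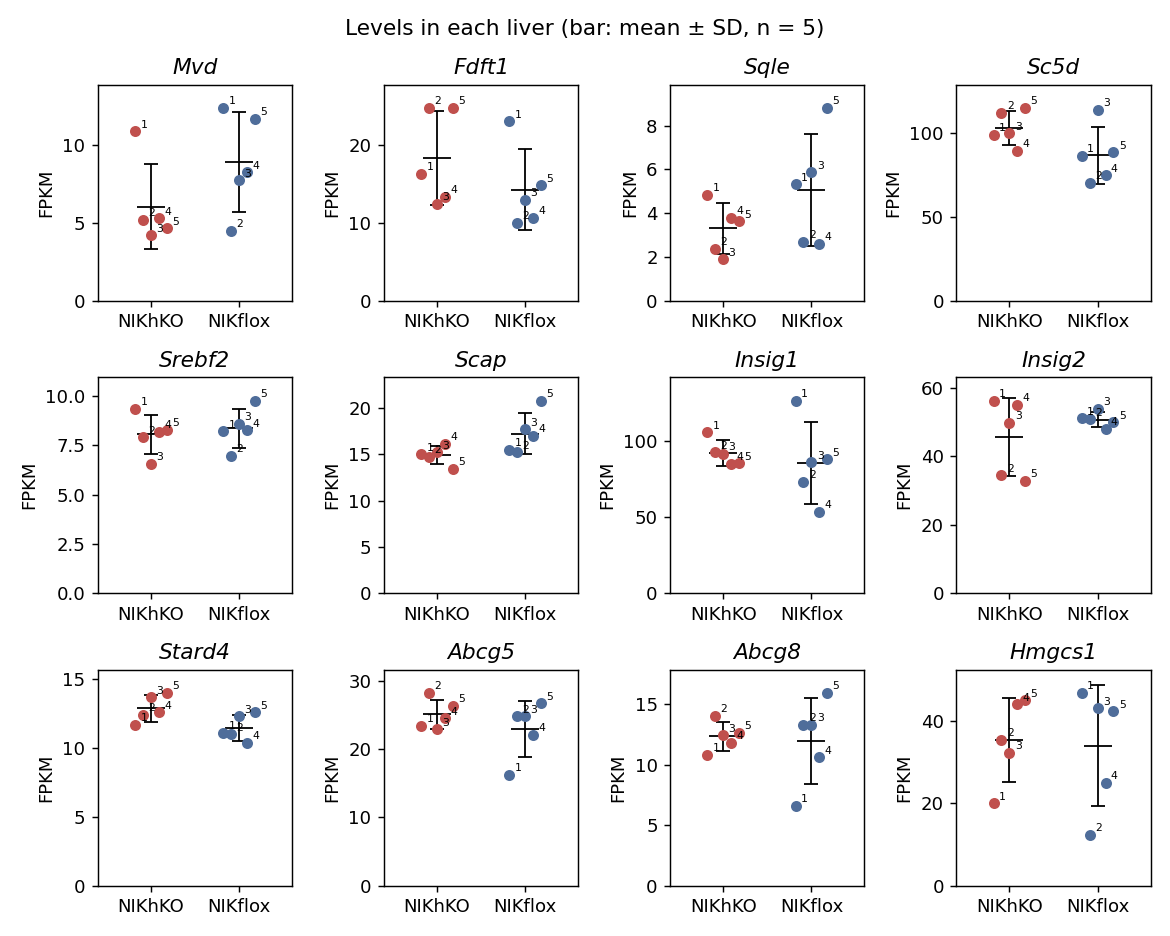
Level in FPKM of 12 sterol genes in each liver, NIKhKO left and NIKflox right, with the replicate number beside each point and bars for the mean ± SD (n = 5 each). The genotypes overlap in all 12 panels, and in Sqle and Hmgcs1 NIKflox 2 and 4 lie below the other NIKflox livers.

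None of the 4 control genes of SREBP2 passed the test. Srebf2, the gene of SREBP2 itself (chromosome 15, 82147181 to 82205379), read 9.35, 7.9, 6.57, 8.19 and 8.29 FPKM in NIKhKO 1 to 5, against 8.21, 6.96, 8.58, 8.26 and 9.77 FPKM in NIKflox 1 to 5. The genotypes spanned nearly the same levels, with a log2 fold change of 0.01 (SE 0.11, adjusted p = 0.99) and an approximate 95% interval of -0.20 to 0.22. Scap, with the smallest p of the group, read 15.0, 14.7, 15.2, 16.1 and 13.4 FPKM in NIKhKO 1 to 5, against 15.5, 15.2, 17.7, 17.0 and 20.8 FPKM in NIKflox 1 to 5. NIKflox 3, 4 and 5 lay above all NIKhKO livers, and the log2 fold change was -0.15 (SE 0.10, adjusted p = 0.69).

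Insig1, itself induced by SREBP proteins, was among the most abundant members. It read 106, 93.0, 91.9, 85.1 and 85.7 FPKM in NIKhKO 1 to 5, against 127, 73.3, 86.2, 53.7 and 88.3 FPKM in NIKflox 1 to 5. NIKflox 1 was the highest and NIKflox 4 the lowest of the 10 livers, and the log2 fold change was 0.16 (SE 0.20, adjusted p = 0.86). Without NIKflox 2 and 4 it was -0.08 (SE 0.15). Insig2, which has alternative promoters (3 windows in the RefSeq table), read 56.3, 34.4, 49.8, 55.0 and 32.8 FPKM in NIKhKO 1 to 5, against 51.1, 50.8, 53.9, 48.1 and 49.9 FPKM in NIKflox 1 to 5. NIKhKO 2 and 5 were lower than the other 8 livers, which lay close together, and the log2 fold change was -0.09 (SE 0.16, adjusted p = 0.91). The ratio of Insig1 to Insig2 within a liver, which does not depend on library scaling, averaged 2.12 ± 0.51 in NIKhKO livers and 1.68 ± 0.507 in NIKflox livers (SD, n = 5 each; exact two-sided permutation p = 0.16, adjusted p = 0.25 over the 3 ratios tested). Without NIKflox 1, which had the highest ratio of the NIKflox livers (2.48), the exact permutation p of this ratio was 0.048, unadjusted. Over all alternatives the p ran from 0.048 to 0.55.

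Stard4, a sterol carrier induced by SREBP2, was the other member with an unadjusted p below 0.05. It read 11.7, 12.4, 13.7, 12.6 and 14.0 FPKM in NIKhKO 1 to 5, against 11.1, 11.0, 12.3, 10.4 and 12.6 FPKM in NIKflox 1 to 5. The ranges overlapped through NIKflox 3 and 5, and the log2 fold change was 0.23 (SE 0.10, unadjusted p = 0.040, adjusted p = 0.47). Without NIKflox 2 and 4 it was 0.16 (SE 0.10, unadjusted p = 0.17). Mylip, an LXR-induced ubiquitin ligase that targets lipoprotein receptors for degradation, read 1.96 to 4.2 FPKM in NIKhKO livers and 2.88 to 3.81 FPKM in NIKflox livers, with a log2 fold change of -0.12 (SE 0.20).

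The sterol exporters Abcg5 and Abcg8 followed each other from liver to liver without a difference between the genotypes that passed. Abcg5 (chromosome 17, 84658234 to 84683011) read 23.4, 28.2, 22.9, 24.5 and 26.3 FPKM in NIKhKO 1 to 5, against 16.2, 24.8, 24.8, 22.1 and 26.7 FPKM in NIKflox 1 to 5. Abcg8 (chromosome 17, 84676302 to 84700333) read 10.8, 14.0, 12.4, 11.8 and 12.6 FPKM in NIKhKO 1 to 5, against 6.58, 13.3, 13.3, 10.6 and 15.9 FPKM in NIKflox 1 to 5. NIKflox 1 was the lowest liver for both genes, and the log2 fold changes were 0.19 (SE 0.12, adjusted p = 0.67) for Abcg5 and 0.11 (SE 0.19, adjusted p = 0.90) for Abcg8. In the deposited table, unlike in RefSeq, Abcg8 begins inside Abcg5, at base 84676302, so that the annotations differ on its start. No source used here says that counting used strand, and reads of the stretch shared in the deposited coordinates cannot be assigned with certainty. The ratio of Abcg5 to Abcg8 was 2.04 ± 0.12 in NIKhKO livers and 1.99 ± 0.301 in NIKflox livers (SD, n = 5 each), with an exact permutation p of 0.72 (also 0.72 when adjusted). Across the 10 livers their log2 levels had a Pearson r of 0.95 and a Spearman rho of 0.90 (permutation p = 0.00075 and 0.00093, adjusted p = 0.0037 and 0.0046 over the 5 gene pairs examined), and r was 0.79 without NIKflox 1 and NIKhKO 2, the livers farthest from the median of Abcg5.

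**Figure D3:**
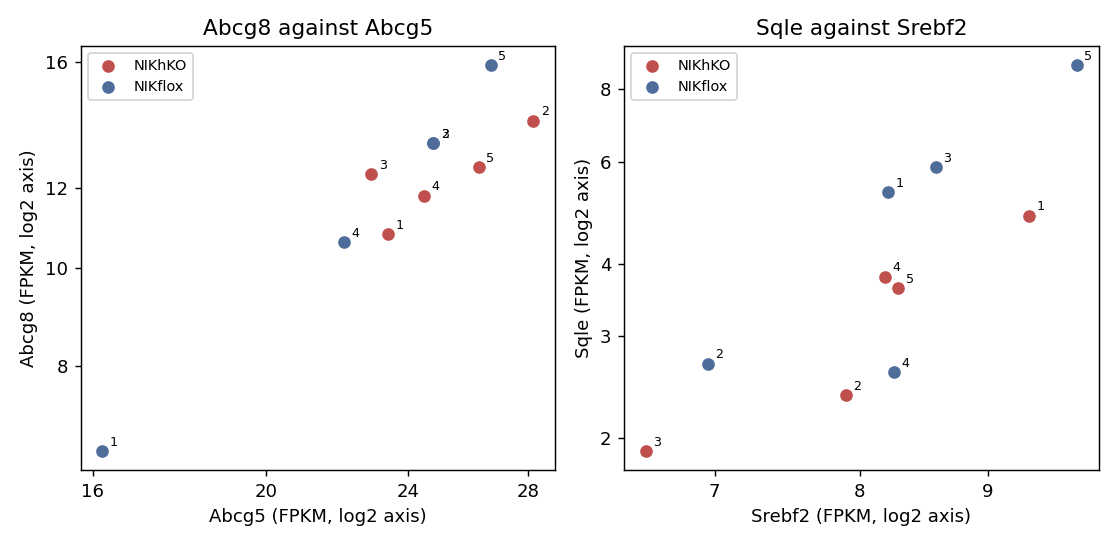
Level of Abcg8 against Abcg5 (left) and of Sqle against Srebf2 (right) in the 10 livers, both axes in FPKM on a log2 scale, with NIKhKO and NIKflox livers in separate colours and the replicate number beside each point. NIKflox 1 is lowest for both exporters, and NIKhKO 3 and NIKflox 5 are the lowest and highest livers for both Srebf2 and Sqle.

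Sqle went with Srebf2 across livers of both genotypes. Their log2 levels had r = 0.83 and rho = 0.78 over 10 livers (permutation p = 0.0024 and 0.011, adjusted p = 0.0060 and 0.026), and r = 0.85 once the genotype means were subtracted. Without NIKhKO 3 and NIKflox 5, the livers farthest from the median of Srebf2, r was 0.61, and without NIKflox 2 and 4 it was 0.87. For the other 3 pairs the correlation did not pass, with r = 0.39 and rho = 0.42 for Hmgcs1 and Sqle (permutation p = 0.27 and 0.23, adjusted 0.36 and 0.39), r = 0.37 and rho = 0.21 for Insig1 and Sqle (permutation p = 0.29 and 0.56, adjusted 0.36 and 0.56), and r = -0.14 and rho = -0.35 for Mylip and Abcg5 (permutation p = 0.70 and 0.33, adjusted 0.70 and 0.41). Without the 2 livers farthest from the median of the first gene, r was 0.66, 0.13 and -0.03 for these pairs. The ratio of Abcg5 to Sqle, of export to synthesis genes, was 8.5 ± 3.29 in NIKhKO livers and 5.61 ± 3.02 in NIKflox livers (SD, n = 5 each), and the log2 difference was 0.68 (exact permutation p = 0.17, adjusted p = 0.25). NIKflox 2 and 4 had the highest ratios of the NIKflox livers, 9.23 and 8.48, against 3.03 to 4.23 in NIKflox 1, 3 and 5. Without NIKflox 2 and 4 the log2 difference was 1.23 (exact permutation p = 0.036, unadjusted, over fewer arrangements). This restates their high ratios and is not a separate result. Over the 12 alternatives the p of the difference ran from 0.036 to 0.30.

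The larger variation of the synthesis enzymes lay between livers of the same genotype. Averaged over the 19 enzymes, the log2 level relative to the mean of each gene was 0.19, -0.04, -0.34, 0.06 and 0.09 in NIKhKO 1 to 5, against 0.12, -0.42, 0.26, -0.31 and 0.39 in NIKflox 1 to 5. The same measure, as a median over all 12731 tested genes, lay between -0.097 and 0.122. NIKflox 2, NIKflox 4 and NIKhKO 3 were thus the low livers, and NIKflox 5 the high one. Of the 19 enzymes, 13 had their lowest level in NIKflox 2 or 4 and the other 6 in NIKhKO 3, while 8 had their highest level in NIKflox 5. In NIKhKO 3, with summed heart and adipose markers of 0.16 and 2.97 FPKM, markers of those tissues were within the range of the other livers. NIKhKO 3 had the lowest hepatocyte sum of the NIKhKO livers, 41000 FPKM, and the highest sinusoidal endothelial sum, 49.2 FPKM. It also had their highest Kupffer cell sum, 173 FPKM, and lowest cholangiocyte sum, 15.8 FPKM. Its stellate cell sum, 38.4 FPKM, was within the range of the other livers. Its median over all tested genes, -0.097, was the lowest of all livers. The part of cell composition in its enzyme levels was not tested. The coefficient of variation of the enzymes had a median of 20.5% in NIKhKO livers and 30.1% in NIKflox livers, and was larger in NIKflox for 16 of the 19. Over all tested genes these medians were 17.4% and 18.2%, and 52.7% of genes varied more in NIKflox. The difference in spread between the genotypes was not tested.

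NIKflox 2 and 4, the livers with heart transcripts, both lay below NIKflox 1, 3 and 5 for 14 of the 19 enzymes, as did 7.06% of all tested genes. The exceptions were Acat2, Pmvk, Mvd, Ggps1 and Hsd17b7. Summed hepatocyte markers were at 49100 FPKM in NIKflox 2 and 36800 FPKM in NIKflox 4, against 41000 to 51000 FPKM in the other 8 livers. Stellate cell markers summed to 62.7 FPKM in NIKflox 2 and 30.8 FPKM in NIKflox 4, against 26.3 to 46.1 FPKM in the other 8, and sinusoidal endothelial markers to 51.1 and 49.3 FPKM, against 30.2 to 49.2 FPKM. NIKflox 4 thus had the lowest hepatocyte sum, NIKflox 2 the highest stellate sum, and the pair the highest endothelial sums of the 10 livers. The sums are weighted to their most abundant markers, and markers of a list did not move together. In NIKflox 4 Alb was the lowest of the 10 livers (24800 FPKM) but Hnf4a the highest (142 FPKM). In NIKflox 2 Dcn was the highest (47.7 FPKM) but Lrat the lowest (2.33 FPKM). In whole liver, fewer cells of a type and less RNA per cell cannot be told apart, and the part of other tissues and cell types in the enzyme levels was not tested. As NIKflox 2 and 4 were low for most enzymes, leaving them out raises the NIKflox mean. The shifts that follow restate this and are not a separate result. Without both livers the log2 fold change moved down for 18 of the 19 enzymes. Of the 19, 12 were then negative in place of 8, and the median was -0.22 in place of 0.02, while 49.4% of all tested genes were negative. Then 5 members (18.5%) had a negative log2 fold change at an unadjusted p below 0.05, against 4.16% of all tested genes, and 0 of 27 passed. These were Sqle at -0.96 (SE 0.29, adjusted p = 0.43), Mvd at -0.77 (SE 0.31, adjusted p = 0.56), Idi1 at -0.64 (SE 0.19, adjusted p = 0.41), Cyp51 at -0.49 (SE 0.17, adjusted p = 0.49) and Tm7sf2 at -0.34 (SE 0.14, adjusted p = 0.58). Sc5d, Stard4 and Abcg5 remained positive, at 0.15, 0.16 and 0.20.

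**Figure D4:**
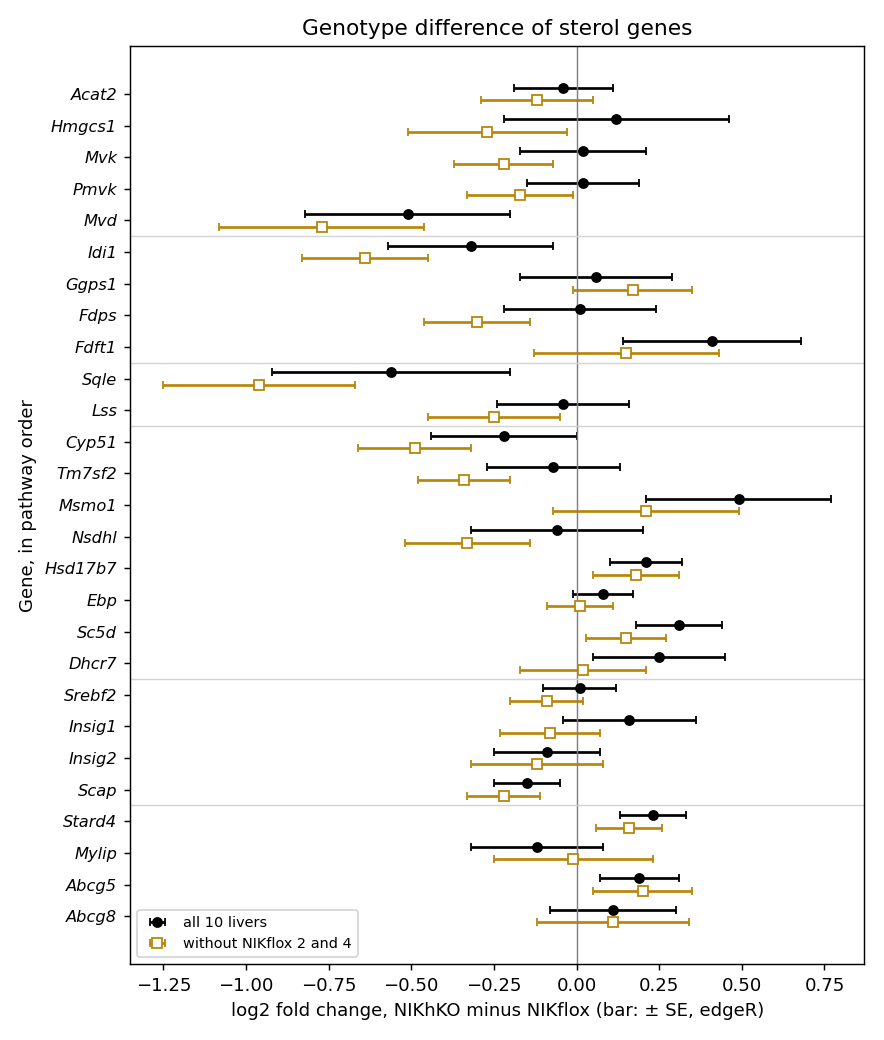
Log2 fold change of each sterol gene, NIKhKO minus NIKflox, with its standard error from edgeR, over all 10 livers (black circles) and without NIKflox 2 and 4 (open squares). The squares lie left of the circles for 18 of the 19 enzymes, the exception being Ggps1.

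Genes around the pathway, 58 in 7 lists by function, gave the same count. Of these 55 were tested, 30 with positive and 25 with negative log2 fold changes and a median of 0.01, and 0 passed over all genes, with 7 of the 55 at an unadjusted p below 0.05, against 1273 of all 12731 tested genes. In the list of SREBP processing and sterol-regulated degradation, 4 of 10 were positive, and Erlin1, an endoplasmic reticulum scaffold of that degradation (log2 fold change 0.28, adjusted p = 0.44), and the ubiquitin ligase Syvn1 (-0.46, adjusted p = 0.67) had the smallest p-values. LXR and efflux genes had 6 of 9 positive, with Abcb4, the phosphatidylcholine exporter of bile, at 19.4 ± 0.987 FPKM in NIKhKO livers and 25.1 ± 4.44 FPKM in NIKflox livers (log2 fold change -0.30, adjusted p = 0.40), and Lpcat3, an LXR target of phospholipid remodelling, at 23.5 ± 1.06 FPKM in NIKhKO livers and 21.1 ± 1.97 FPKM in NIKflox livers (0.22, adjusted p = 0.43).

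The smallest p among these genes belonged to Cyp39a1, an oxysterol hydroxylase of bile acid synthesis. It read 8.9, 9.95, 12.6, 19.3 and 10.5 FPKM in NIKhKO 1 to 5, against 23.6, 17.0, 18.5, 28.7 and 19.8 FPKM in NIKflox 1 to 5. NIKhKO 4 alone reached into the NIKflox range, and the log2 fold change was -0.74 (SE 0.22, unadjusted p = 0.0059, adjusted p = 0.29). Cyp27a1, the sterol hydroxylase that opens the alternative bile acid route, averaged 113 ± 16.9 FPKM in NIKhKO livers and 144 ± 13.6 FPKM in NIKflox livers (SD, n = 5 each; log2 fold change -0.29, adjusted p = 0.44). In the remaining lists the smallest p-values were those of Npc1 and Osbp among 9 sterol transport genes, Pdss1 and Rabggtb among 10 genes of the non-sterol isoprenoid branch, Cyb5r3 and Cyb5a among 6 genes of electron supply, and Tmem97 and Acss2 among 4 other SREBP2 targets. Their log2 fold changes ran from -0.20 for Rabggtb to 0.49 for Pdss1, with adjusted p-values of 0.45 to 0.85.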

How the data were processed

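The authors deposited 1 table with an FPKM value and an estimated count per gene and library, per the file headers. The deposited FPKM values are scaled to transcript length and library size, and the deposited estimated counts are not normalized. Tools listed in the submitters' processing notes, with no role or order, are StringTie 1.3.4d, HISAT2 2.0.4, cutadapt 1.9 and edgeR, and the build listed is the human hg38. The coordinates of 25 of the 27 members equal those of mouse GENCODE M21 (GRCm38), as which they are read. The whole-number counts were tested as they stand, although they are estimates and may not be single read pairs, so that depth is not known exactly.

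Genes whose FPKM averaged 0.5 or more, and Map3k14, were tested with edgeR 4.0.16 in R 4.3.3 (TMM, quasi-likelihood, two-sided, Benjamini-Hochberg over 12731 genes, adjusted p below 0.05), over all 10 libraries with no covariate. The SE was derived from the fold change and the F statistic. Ratios used exact permutation tests, over 252 arrangements with all 10 libraries (smallest p 0.0079) and over fewer with libraries left out. Correlations used log2(FPKM + 0.1) with 100000 resamples (scipy 1.17.1). Members and lists were chosen with earlier results of these data known. Values per liver are given for members with an unadjusted p below 0.05, the smallest p of each role, Srebf2, Insig1, Insig2, Abcg5 and Abcg8, and in each other list the 2 genes with the smallest p are named. Hmgcs1 and other named genes were chosen after their values were seen. Alternatives were limma 3.58.1, DESeq2 1.42.0, other scalings and filters, counts divided by 4, the replicate block and left-out libraries. Promoters are RefSeq's, GRCm38.p6.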

Additional observations from a re-analysis of the deposited data

Results flagged for a closer look

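In 60 groups of 5 livers (27 genes and 3 ratios in each genotype), 2 held a liver far from the other 4. Chance gives about 1 in 20, so this count was not above what chance gives. Both were NIKhKO 1. Acat2, the cytosolic thiolase, read 46.7 FPKM there against 29.2 to 30.8 FPKM in the other NIKhKO livers. Mvd, the mevalonate diphosphate decarboxylase, read 10.9 FPKM there against 4.2 to 5.3 FPKM in the other NIKhKO livers. Without NIKhKO 1 the log2 fold changes (NIKhKO minus NIKflox) were -0.18 for Acat2 and -0.82 for Mvd, against -0.04 and -0.51 with it.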

How the results depend on the processing

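The count of 0 called members held under all alternatives (26 members tested at a mean FPKM of at least 2), with 0 to 5 at an unadjusted p below 0.05. The median log2 fold change of the members ran from -0.12 without NIKflox 2 and 4 to 0.13 without NIKflox 5, so its sign did not hold. These moves were smaller than 0.219, the SD between single libraries, which is a wide limit for a difference of group means. The median of the synthesis enzymes was 0.02 with all libraries and -0.22 without NIKflox 2 and 4. Of 539 member values under alternatives, 49 changed sign, in 13 genes, and 14 genes kept theirs. Sign changes beyond a standard error came without NIKflox 2 and 4, at -0.27 for Hmgcs1, -0.22 for Mvk, -0.17 for Pmvk and -0.30 for Fdps. Leaving out 1 library moved Hmgcs1 between -0.09 and 0.29. The 3 genes called over all genes were 207 with DESeq2, 0 with limma at either pseudocount (1375 and 1365 at an unadjusted p below 0.05), 8 at a mean FPKM of at least 2, 1 without NIKflox 2 and 4 and 0 to 24 without 1 library, 24 without NIKhKO 4. The cause was not tested. The log2 difference of the Abcg5 to Sqle ratio was 1.23 without NIKflox 2 and 4, that of Insig1 to Insig2 was 0.21 to 0.50 without 1 library (0.50 without NIKflox 1) and 0.11 without NIKflox 2 and 4, and that of Abcg5 to Abcg8 was -0.02 to 0.12, negative without NIKflox 5. With the replicate number as a block, 0 members and 2 genes were called and the median of the members was 0.055. Same-numbered libraries correlated between -0.253 and 0.0508 in their deviations, and none best with its own number, so they were not treated as pairs. These correlations cannot show whether same-numbered mice shared a litter or cage. With 5 livers a genotype, the approximate 95% interval of Sqle ran from -1.26 to 0.14.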

Other observations

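NIKhKO 2 and 5 stood together in several values. Insig2 read 34.4 and 32.8 FPKM in them, against 48.1 to 56.3 FPKM in the other 8 livers. Fdft1, squalene synthase, read 24.7 FPKM in both, with the next highest level, 23.0 FPKM, in NIKflox 1. Mylip was also lowest in this pair, at 2.49 and 1.96 FPKM, with NIKhKO 1 close above at 2.59 FPKM. The summed level of 6 sinusoidal endothelial markers was 37.5 and 30.2 FPKM in them, the lowest of the 10 livers, against 40.8 FPKM in the next, NIKflox 5, and the part of cell composition was not tested. These genes and livers were chosen after their values were seen.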
